A study of Mus musculus with 80 samples.

Results

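Cholesterol is made inside the brain, since plasma lipoproteins largely do not cross the blood-brain barrier, and 7 genes of that synthesis were followed here through every preparation of mouse brain microglia in the series: Hmgcs1, Idi1, Fdps, Sqle, Lss, Cyp51 and Insig1. They were taken by gene symbol, and each was found once in the table of the sort comparison, which lists 15919 genes, and once in the table of the cell preparation comparison, which lists 16000. All 80 libraries came from brains of mice with the genotype Cx3cr1(Jung)-cre/Ert2+;NuTRAP+, in which tamoxifen, given intraperitoneally each day at about 3 months of age at 100 mg/kg body weight, starts the labelling of ribosomes with eGFP in cells that express Cx3cr1. The age of the mice at collection is not given in the labels. Cx3cr1 also marks other macrophages of the brain, so the tagged cells are microglia together with those. No group without tamoxifen or without the transgenes was analysed here.

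Each preparation gave a pair of libraries per mouse. Input is the RNA of the lysate before the pull-down, and TRAP (translating ribosome affinity purification) is the RNA recovered with the eGFP-tagged ribosomes. In the sort comparison, Tissue was 1 hemisphere homogenised directly, and Cell was an unsorted suspension made by enzymatic and mechanical dissociation at 37°C. The other 4 preparations began with such a suspension and were sorted with CD11b magnetic beads (autoMACS), with those beads and then by eGFP on a cartridge sorter (autoMACS to Tyto), on that sorter alone (Tyto), or by conventional flow cytometry (FACSAria). There were 4 mice per group, but 3 for autoMACS to Tyto and 5 for Tyto, 48 libraries in all. The cell preparation comparison had 32 libraries from 4 mice per group, namely Tissue, Cell (-) Inhibitors, Cell (+) Inhibitors, in which actinomycin D, triptolide and anisomycin were present during the enzymatic step to block transcription and translation, and Dounce, a mechanical dissociation in the cold without enzyme. Replicates of a group were different mice, while the 2 Tissue groups came from the same 4 mice, as did Tissue and Cell of the sort comparison. The Cell to Tissue differences of the 2 comparisons are therefore not independent of each other.

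Cholesterol is built from acetyl-CoA by a long chain of enzymes. Hmgcs1, HMG-CoA synthase, catalyses an early step, the formation of HMG-CoA. Idi1, isopentenyl diphosphate isomerase, and Fdps, farnesyl diphosphate synthase, build the isoprenoid chain. Sqle, squalene epoxidase, and Lss, lanosterol synthase, oxidise and close that chain into the first sterol, and Cyp51, lanosterol demethylase, starts its trimming to cholesterol. Insig1 is not an enzyme: it is a protein of the endoplasmic reticulum that holds back SCAP and its cargo SREBP when sterol is plentiful, and it is itself a target of SREBP-2, the factor that turns the synthesis genes on together. In the adult brain, oligodendrocytes use cholesterol for myelin, and astrocytes make it and pass it to neurons on apolipoprotein E.

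Promoters are shown for 3 members that were chosen for their differing results. The RNA of Hmgcs1 was lower in isolated cells than in tissue in the TRAP fraction, and that of Lss was not. Insig1 was lower in TRAP than in Input in sorted cells. No link between promoter sequence and these differences was tested. The sequences are RefSeq windows of the GRCm38.p6 assembly, 250 bases before to 50 bases after the gene start, on the gene's own strand, all 3 on the plus strand: chr13:119690101-119690400 for Hmgcs1, chr5:28071162-28071461 for Insig1 and chr10:76531355-76531654 for Lss. Capitals mark the sterol regulatory element core TCACNCCAC, the CCAAT box and the GC box GGGCGG, each searched on both strands, so a match on the other strand reads as its reverse complement.
Hmgcs1: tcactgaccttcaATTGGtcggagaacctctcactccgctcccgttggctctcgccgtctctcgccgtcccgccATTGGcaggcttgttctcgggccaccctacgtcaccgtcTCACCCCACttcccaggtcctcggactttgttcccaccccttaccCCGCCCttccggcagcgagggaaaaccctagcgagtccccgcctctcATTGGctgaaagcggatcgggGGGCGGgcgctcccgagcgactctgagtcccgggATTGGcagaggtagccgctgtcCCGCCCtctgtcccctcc
Insig1: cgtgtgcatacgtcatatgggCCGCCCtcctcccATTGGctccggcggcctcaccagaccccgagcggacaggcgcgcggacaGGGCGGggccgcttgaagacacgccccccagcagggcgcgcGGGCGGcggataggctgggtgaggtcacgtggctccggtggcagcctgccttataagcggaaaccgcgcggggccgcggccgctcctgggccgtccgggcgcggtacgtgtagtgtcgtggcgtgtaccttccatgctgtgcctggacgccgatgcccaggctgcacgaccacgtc
Lss: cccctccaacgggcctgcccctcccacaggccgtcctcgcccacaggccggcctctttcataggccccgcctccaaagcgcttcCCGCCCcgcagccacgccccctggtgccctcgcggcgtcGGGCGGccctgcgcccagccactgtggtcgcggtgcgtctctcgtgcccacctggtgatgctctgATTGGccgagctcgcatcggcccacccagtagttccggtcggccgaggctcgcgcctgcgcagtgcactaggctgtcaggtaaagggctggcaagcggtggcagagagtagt

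RefSeq windows were matched for 5 of the 7 members, all but Sqle and Fdps. The sterol regulatory element core was present in 1 of the 5, Hmgcs1, starting 137 bases before the gene start, and it was present in 1.24% of the 32851 promoter windows of 27025 genes. A CCAAT box was held by all 5 and by 37.4% of all windows, and a GC box by all 5 and by 35.7%. Hmgcs1 held 4 CCAAT boxes and 3 GC boxes, Idi1 held 2 and 1, Insig1 1 and 3, Lss 1 and 2, and Cyp51 1 of each. These are exact letter matches in 1 window per gene start. A window without a match says nothing of sites elsewhere, or of sites inside it that differ from the letters searched. In the GENCODE vM21 annotation of the same assembly, the genes lie at chr13:119690379-119708260 (Hmgcs1, plus strand), chr13:8885501-8892451 (Idi1, plus), chr3:89093588-89101959 (Fdps, minus), chr15:59315077-59331192 (Sqle, plus), chr10:76531588-76557138 (Lss, plus), chr5:4081145-4104746 (Cyp51, minus) and chr5:28071363-28078662 (Insig1, plus).

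Library totals ran from 7129464 to 20168116 expected counts in the sort comparison and from 2471448 to 14650287 in the cell preparation comparison, where the 4 Dounce-TRAP libraries were the shallowest at 2471448 to 4724538. Levels are given as CPM (counts relative to the library total, scaled by TMM over all libraries of a comparison), and differences as log2 fold changes with their standard error (SE) from edgeR's quasi-likelihood test within 1 set of libraries, so a fold may depart a little from the ratio of the printed CPM. Calls needed a fold above 2 and, over all genes tested, a Benjamini-Hochberg false discovery rate under 0.1, and the 7 members passed the count filter in every set. Eight-gene lists of cell markers were summed in each library, with no list gene at 0 in every library of the Tissue or Cell groups. The summed microglial markers were 239.8 to 376 CPM in Tissue-Input of the sort comparison, 4423 to 5755 in Cell-Input and 23291 to 41749.9 in the sorted Input, and 5334 to 6730 in Tissue-TRAP, 33865 to 35887 in Cell-TRAP and 40487 to 49975 in the sorted TRAP. The astrocytic list ran from 3399 to 5254 CPM in Tissue-TRAP, from 1691 to 1912 in Cell-TRAP and from 134 to 236 in the sorted TRAP, so markers of other cell types were present in Tissue-TRAP. In the sorted groups Opalin was at 0 in every library of autoMACS-TRAP, FACSAria-TRAP and autoMACS to Tyto Input, Mog also in the last of these, and Cldn11 in autoMACS to Tyto TRAP. One library, the third autoMACS-Input, was the shallowest of the sort comparison and had 23291 CPM of microglial markers against 35073 to 37704 in the other 3.

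For a rough comparison between genes, CPM was divided by the merged length of all GENCODE exons of a gene. That length can exceed the length of the transcript expressed, and the order of the genes depends on it. Hmgcs1 and Fdps were the highest of the 7 in Tissue-TRAP of the sort comparison, at 52.1 ± 4.43 and 48.9 ± 5.95 CPM per kb (SD, n = 4). Insig1 followed at 22.8 ± 1.98, then Sqle at 14.7 ± 0.850, Idi1 at 14.4 ± 0.391 and Cyp51 at 11.5 ± 0.873, and Lss was lowest at 2.18 ± 0.558. Sqle and Idi1, and Hmgcs1 and Fdps, were closer to each other than their SD. In Tyto-TRAP, as an example of sorted microglia, Hmgcs1 was again the highest at 19.2 ± 1.23 CPM per kb (n = 5), with Fdps at 13.1 ± 1.95. Cyp51 at 5.96 ± 1.04, Insig1 at 5.74 ± 0.830 and Idi1 at 5.20 ± 1.37 did not differ beyond their SD, nor did the lowest pair, Lss at 2.69 ± 0.314 and Sqle at 2.44 ± 0.521. Sqle thus stood above Lss in Tissue-TRAP and beside it in Tyto-TRAP.

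**Figure D1:**
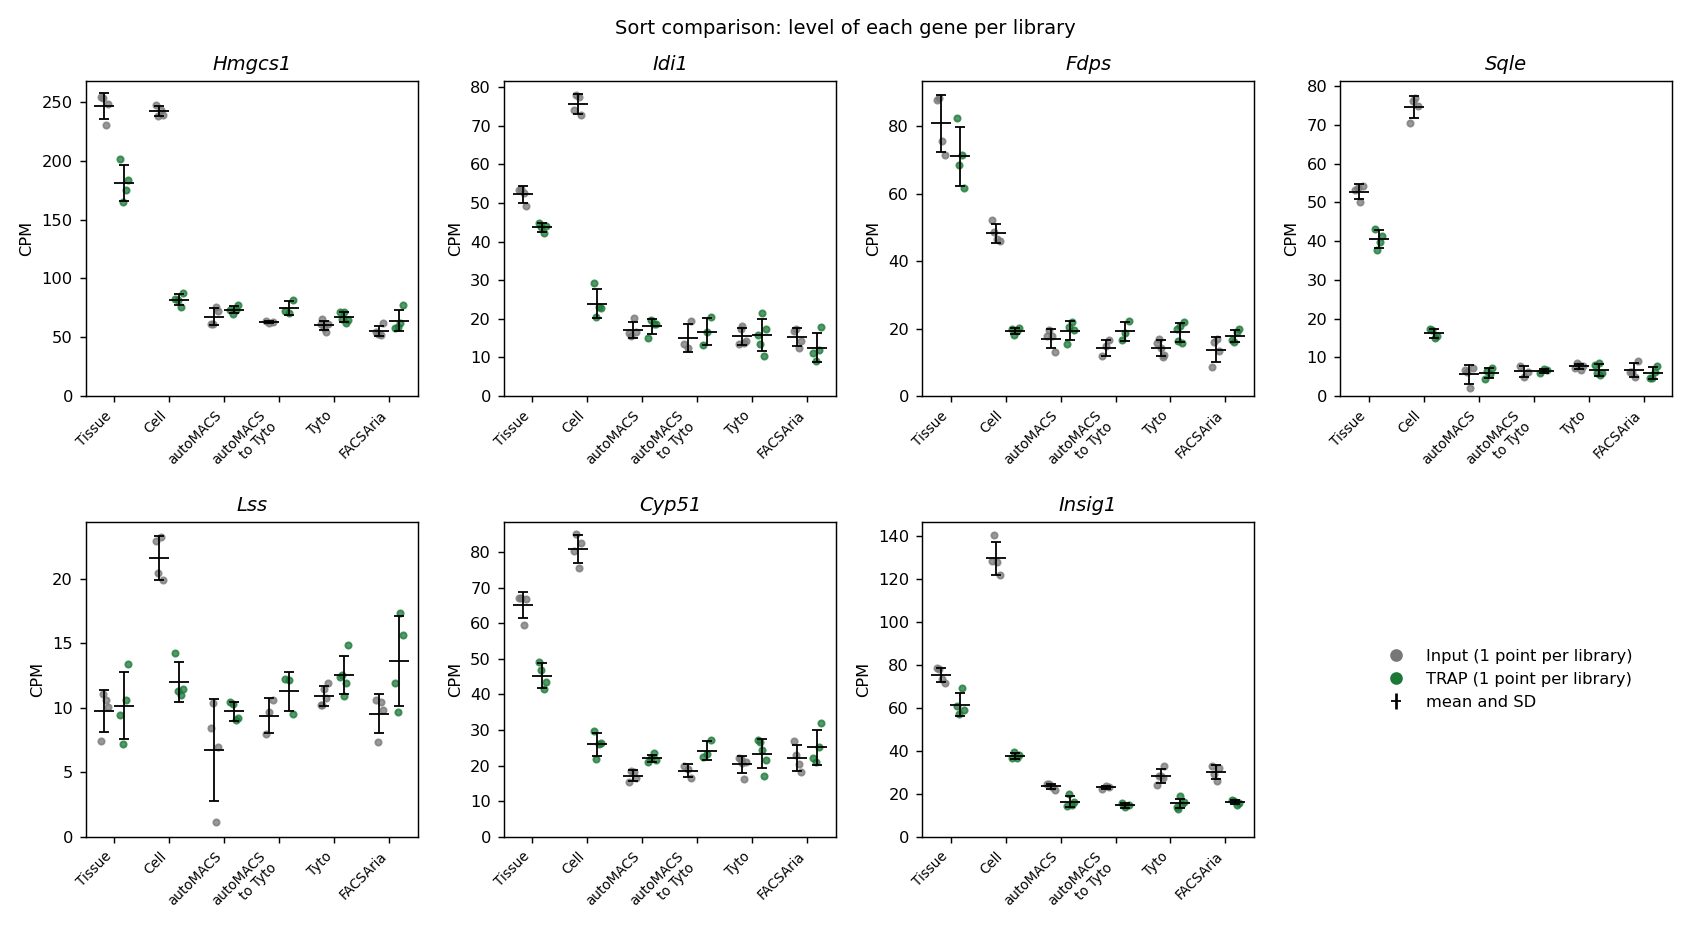
Level of each of the 7 genes (CPM, vertical axis) in every library of the sort comparison by preparation, with Input in grey and TRAP in green and bars for the mean and SD. Cell-Input stands above Cell-TRAP for every gene, with Hmgcs1 at 238 to 248 against 75.6 to 87.8 CPM.

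Ribosome-bound RNA of 3 of the 7 genes, Fdps, Sqle and Hmgcs1, was called lower in the dissociated cells than in whole tissue. Hmgcs1 was 201, 165, 175 and 184 CPM in Tissue-TRAP and 82.6, 81.98, 75.6 and 87.8 CPM in Cell-TRAP of the sort comparison. Fdps was 82.5, 68.6, 71.6 and 61.7 CPM in Tissue-TRAP and 19.9, 18.1, 19.3 and 20.3 CPM in Cell-TRAP. For both genes every Cell library was below every Tissue library. Sqle was 43.2, 37.7, 39.7 and 41.2 CPM in Tissue-TRAP and 17.2, 17.1, 15.0 and 15.6 CPM in Cell-TRAP, again without overlap. These 3 genes fell, by log2 fold changes of -1.86 ± 0.13 (SE) for Fdps (adjusted p = 8.15e-13), -1.31 ± 0.16 for Sqle (adjusted p = 4.99e-08) and -1.13 ± 0.08 for Hmgcs1 (adjusted p = 6.27e-12). Idi1 (-0.86 ± 0.18), Cyp51 (-0.79 ± 0.13) and Insig1 (-0.69 ± 0.10) were lower in all 4 mice but did not reach the fold of 2, and Idi1 reached it at -1.001 without the first Cell-TRAP library. These 3 also reached it, at -1.19, -1.12 and -1.02, when scaled by DESeq2's size factors and not by TMM, which moves the median of all genes by -0.33. Lss was 9.46, 7.16, 10.6 and 13.4 CPM in Tissue-TRAP and 14.3, 11.3, 10.96 and 11.4 CPM in Cell-TRAP, with overlapping groups and a log2 fold change of 0.25 ± 0.18 (95% interval -0.12 to 0.61). Thus 3 of the 7 were called lower and 0 higher, where 29.3% of the 14953 genes tested were called lower and 25.1% higher, and the median log2 fold change was -0.86 over the members and -0.01 over all genes. With the size factors, the share of higher among all called genes went from 46.2% to 35.05%. In a bulk library, fewer cells of a type and less RNA per cell cannot be told apart. The neuronal marker list was 5127 to 5980 CPM in Tissue-TRAP and 118 to 328 CPM in Cell-TRAP, and the astrocytic list also fell between these groups, as given above. Their part in the difference was not tested.

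In sorted cells, 2 of the 7 were lower still. Sqle over the 16 sorted TRAP libraries had a lowest, median and highest value of 4.39, 6.17 and 8.45 CPM, all below the 15.0 to 17.2 CPM of Cell-TRAP. The log2 fold change of the mean of the sorts against Cell was -1.39 ± 0.12 for Sqle (adjusted p = 5.66e-10). Insig1 had a lowest, median and highest value of 12.9, 15.5 and 19.8 CPM in the sorted TRAP libraries and was 36.5, 39.5, 36.8 and 37.9 CPM in Cell-TRAP, without overlap. It fell by -1.29 ± 0.08 on the log2 scale (adjusted p = 3.34e-13). The remaining 5 were not called, with log2 fold changes of -0.65 ± 0.14 for Idi1, -0.26 ± 0.07 for Hmgcs1, -0.16 ± 0.11 for Cyp51, -0.07 ± 0.10 for Fdps and -0.06 ± 0.14 for Lss. So 2 of 7 were called lower and 0 higher, beside 23.6% and 0.836% of all genes tested, and the members' median was -0.26 against -0.05 for all genes. Between these groups the summed astrocytic markers went from at least 1691 to at most 236 CPM and the oligodendrocytic markers from 464 to 676 down to 207 to 236 CPM. Their part in the falls of Sqle and Insig1 was not tested.

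Set against Tissue-TRAP directly, 5 of the 7 were lower in the sorted TRAP libraries, and the spread among genes was wide. The log2 fold changes were -2.70 ± 0.11 for Sqle (adjusted p = 1.99e-17), -1.99 ± 0.08 for Insig1, -1.93 ± 0.09 for Fdps, -1.50 ± 0.13 for Idi1 and -1.39 ± 0.06 for Hmgcs1. Cyp51, at -0.95 ± 0.10, was just under the fold threshold and past it, at -1.30, with DESeq2's size factors. Lss, at 0.19 ± 0.14 (95% interval -0.10 to 0.48), was not called. Over all genes tested, 36.9% were called lower and 25.9% higher, with a median of -0.14 against -1.50 for the members. The median of all genes moved by -0.35 with the size factors. The summed neuronal markers went from 5127 to 5980 CPM in Tissue-TRAP down to 3.48 to 9.86 CPM in the sorted TRAP, and the oligodendrocytic markers from 721 to 979.8 down to 207 to 236 CPM. Their part in these differences was not tested.

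No member was called between the 4 sort methods. In TRAP, the largest log2 difference between any 2 sorts was 0.54 for Idi1 and 0.48 for Lss and at most 0.22 for the rest. By the F test across sorts, 0 members were called by edgeR, 0 had an unadjusted p under 0.05, and 0 were called by DESeq2 and 0 by limma, beside 4.17% of all genes called by edgeR. In Input, the largest difference between sorts was 0.64 for Lss and 0.13 for Idi1 at the other end, and 0 members were called by edgeR, DESeq2 or limma, although 3 had an unadjusted p under 0.05, where 7.42% of all genes were called. The Lss value rested on the third autoMACS-Input library, the shallowest. Without it, Lss was at 0.32, Sqle went from 0.42 to 0.24, and Cyp51 was the largest at 0.39. In Input 2 members passed the false discovery rate in edgeR's F test, with folds between the sorts below 2. Insig1 was 1 of them, with an adjusted p of 0.0262. In Input, Insig1 was 25.9 to 32.95 CPM in FACSAria, above every library of autoMACS (21.9 to 24.6) and of autoMACS to Tyto (22.4 to 23.7), and the latter also lay below Tyto (23.9 to 32.8). Hmgcs1 in Input was lower in FACSAria (52.2 to 61.7 CPM) than in autoMACS to Tyto (61.9 to 63.8), and Lss in TRAP lower in autoMACS (9.04 to 10.5) than in Tyto (10.9 to 14.9). All other pairs of sorts overlapped for all 7 genes. Some mice gave libraries to more than 1 sort, and these were treated as independent.

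**Figure D2:**
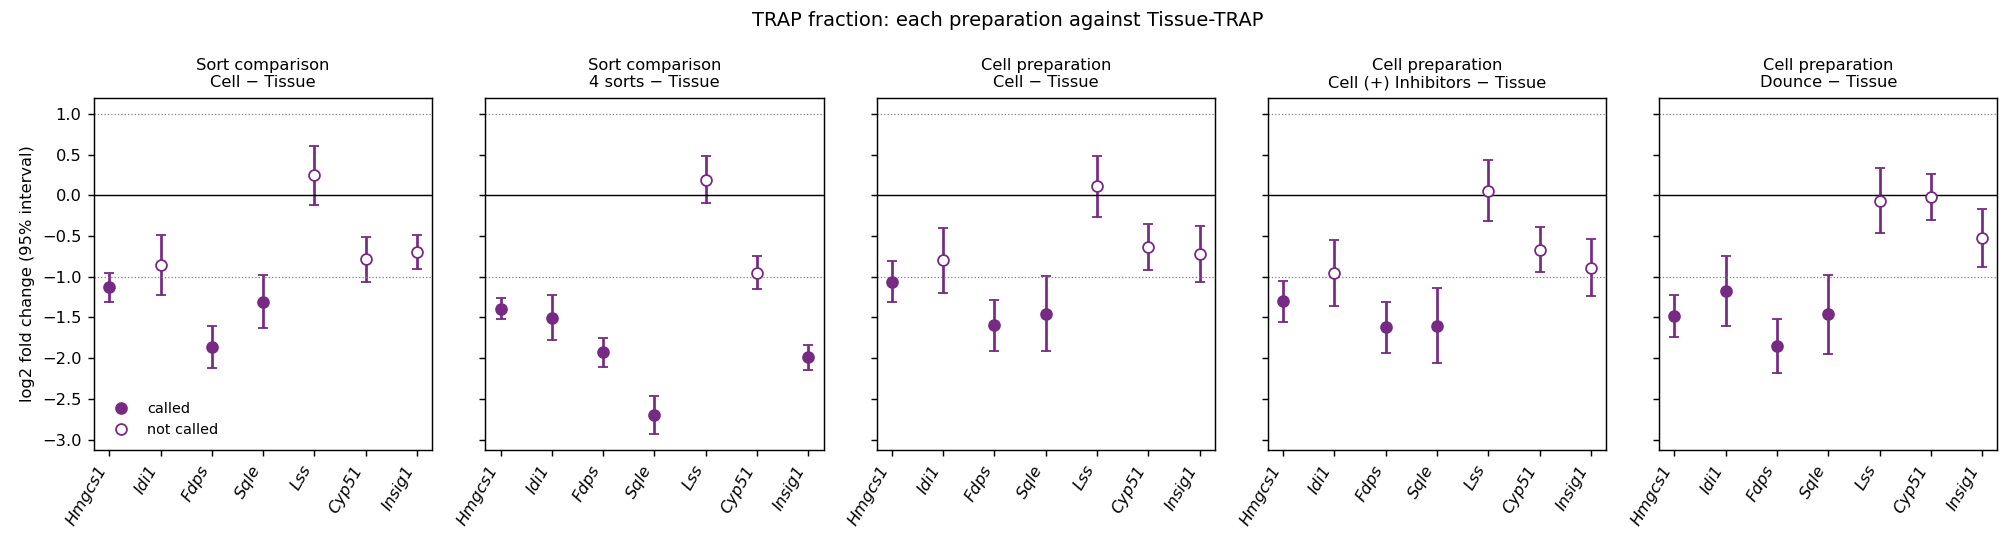
Log2 fold change of each gene in the TRAP fraction of each preparation against Tissue-TRAP of the same comparison (vertical axis), with 95% intervals, filled points for called genes and dotted lines at a fold of 2. Lss is not called in any panel, and Sqle lies at -1.31 for Cell of the sort comparison and lower, at -2.70 on average, in the panel of the sorts.

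In the Input fraction, the suspension looked different from the ribosome-bound RNA. Insig1 was 78.4, 77.9, 73.3 and 71.7 CPM in Tissue-Input and 128, 140.1, 128 and 122 CPM in Cell-Input, higher in every Cell library. Lss was 7.42, 11.1, 10.6 and 10.1 CPM in Tissue-Input and 22.9, 20.4, 23.2 and 19.9 CPM in Cell-Input, also without overlap. Lss was the one member called, at 1.24 ± 0.29 on the log2 scale (adjusted p = 0.000657). Insig1 (0.88 ± 0.09), Idi1 (0.63 ± 0.12), Sqle (0.60 ± 0.19) and Cyp51 (0.41 ± 0.11) lay above 0 with adjusted p under the threshold but under the fold of 2, Hmgcs1 lay at 0.07 ± 0.07 (95% interval -0.07 to 0.22), and Fdps lay below 0 (-0.65 ± 0.15). So 1 of 7 was called higher and 0 lower, beside 28.5% and 17.5% of the 15750 genes tested, with a members' median of 0.60 against 0.17 for all genes. The summed astrocytic markers were 3092 to 3321 CPM in Tissue-Input and 6516 to 8702 in Cell-Input, the oligodendrocytic markers 3132 to 3746 and 9154 to 13759, and the neuronal markers 5352 to 5643 and 399 to 935. Their part in these differences was not tested.

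All 7 genes fell in Input once the suspension was sorted. Sqle was 70.5, 76.2, 76.99 and 74.9 CPM in Cell-Input and had a lowest, median and highest value of 2.03, 6.72 and 9.14 CPM over the 16 sorted libraries. Its log2 fold change of -3.74 ± 0.14, a 13.3-fold difference, was the largest of the members (adjusted p = 2.52e-17). Insig1 (-2.55 ± 0.07), Idi1 (-2.50 ± 0.09), Cyp51 (-2.28 ± 0.08), Hmgcs1 (-2.21 ± 0.05), Fdps (-1.94 ± 0.11) and Lss (-1.48 ± 0.21) fell by 2.78-fold to 5.84-fold. For each of the 7 the sorted libraries lay below every Cell-Input library, and the share of all genes that did so was not counted. The count of 7 called lower and 0 higher stands beside 34.7% and 17.1% of all genes tested, and the members' median of -2.28 beside -0.09 for all genes, a median that moved by -0.21 with DESeq2's size factors. The third autoMACS-Input library had the lowest Sqle and Lss of all sorted Input, at 2.03 and 1.16 CPM from 14 and 8 counts, and without it Sqle was at -3.68, Lss at -1.40, and all 7 were still called. The astrocytic and oligodendrocytic marker sums fell to 166 to 417 and 204 to 841 CPM in the sorted Input libraries. Their part in the falls was not tested.

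The TRAP and Input fractions of the same preparation were then compared. In Tissue, the log2 difference of TRAP against Input was -0.52 ± 0.12 for Cyp51, -0.44 for Hmgcs1, -0.38 for Sqle, -0.29 for Insig1, -0.26 for Idi1, -0.19 for Fdps and 0.06 ± 0.24 for Lss. All but Lss were lower in TRAP in 4 of 4 mice, and of these all but Fdps without overlap of the groups. How many of all genes did the same was not counted. By edgeR, DESeq2 and limma 0 members were called at the fold of 2, although 4 passed the false discovery rate in edgeR and 4 had an unadjusted p under 0.05, beside 9.23% of the 15825 genes called higher in TRAP and 1.87% lower. In Cell, 6 of the 7 were lower in TRAP than in Input, with log2 differences of -2.20 ± 0.18 for Sqle, -1.78 ± 0.10 for Insig1, -1.66 ± 0.16 for Idi1, -1.64 ± 0.12 for Cyp51, -1.56 ± 0.08 for Hmgcs1 and -1.32 ± 0.15 for Fdps. Lss, at -0.85 ± 0.23, was under the fold threshold. It reached -1.03 to -1.18 when any 1 of the 4 mice was left out and -1.26 with DESeq2's size factors. All 7 members moved down when any mouse of the sort comparison was left out, also mice without a Cell library, whose libraries enter the scaling. Without the third autoMACS mouse, which gave no Cell library, Lss was at -0.91 and Cyp51 at -1.69. Over all genes, 30.9% were called lower and 16.8% higher, with a median of -0.07 against -1.64 for the members. The size factors moved that median by -0.41 and the share of higher among called genes from 35.2% to 21.0%.

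The change of the TRAP to Input difference from Tissue to Cell was tested as an interaction. It was called for 6 members, at -1.82 ± 0.24 for Sqle (adjusted p = 4.82e-08), -1.49 ± 0.13 for Insig1, -1.40 ± 0.22 for Idi1, -1.13 ± 0.20 for Fdps, -1.12 ± 0.11 for Hmgcs1 and -1.11 ± 0.17 for Cyp51. Lss was at -0.91 ± 0.33, and at -1.10, -1.30 and -1.05 without the first, the second or the third of the 4 mice. Here too every member moved down when any mouse of the sort comparison was left out. Hmgcs1, for example, then lay between -1.38 and -1.18. Among all genes 29.5% were called lower and 5.74% higher in this test, with a median of -0.29, which the size factors moved by -0.32, and the share of higher among called genes went from 16.3% to 5.23% with them. From Input to TRAP the summed astrocytic markers went from 3092 to 3321 CPM up to 3399 to 5254 in Tissue, and from 6516 to 8702 CPM down to 1691 to 1912 in Cell. Their part in the interaction was not tested.

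Among sorted cells, TRAP and Input differed little except for Insig1. Insig1 was 24.6, 24.3, 23.1 and 21.9 CPM in autoMACS-Input and 14.4, 19.8, 14.8 and 16.3 in autoMACS-TRAP. In FACSAria it was 32.95, 29.0, 25.9 and 32.1 CPM in Input and 16.9, 16.8, 14.8 and 15.7 CPM in TRAP. In all 4 sorts the fractions did not overlap, and Insig1 was lower in TRAP in 16 of 16 Input and TRAP pairs. Its log2 difference over the sorts was -0.73 ± 0.05 (adjusted p = 1.02e-15), a 1.66-fold difference that is under the fold of 2 and was not called. Fdps (0.35 ± 0.08), Lss (0.37 ± 0.12), Cyp51 (0.28 ± 0.06) and Hmgcs1 (0.19 ± 0.04) lay slightly above 0, and Sqle (-0.06 ± 0.10) and Idi1 (-0.00 ± 0.09) at 0. By edgeR, DESeq2 and limma 0 members were called, and in edgeR 5 had an unadjusted p under 0.05, beside 18.8% of all genes called lower in TRAP and 0.0758% called higher, with a median of -0.19 over all genes and 0.19 over the members.

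**Figure D3:**
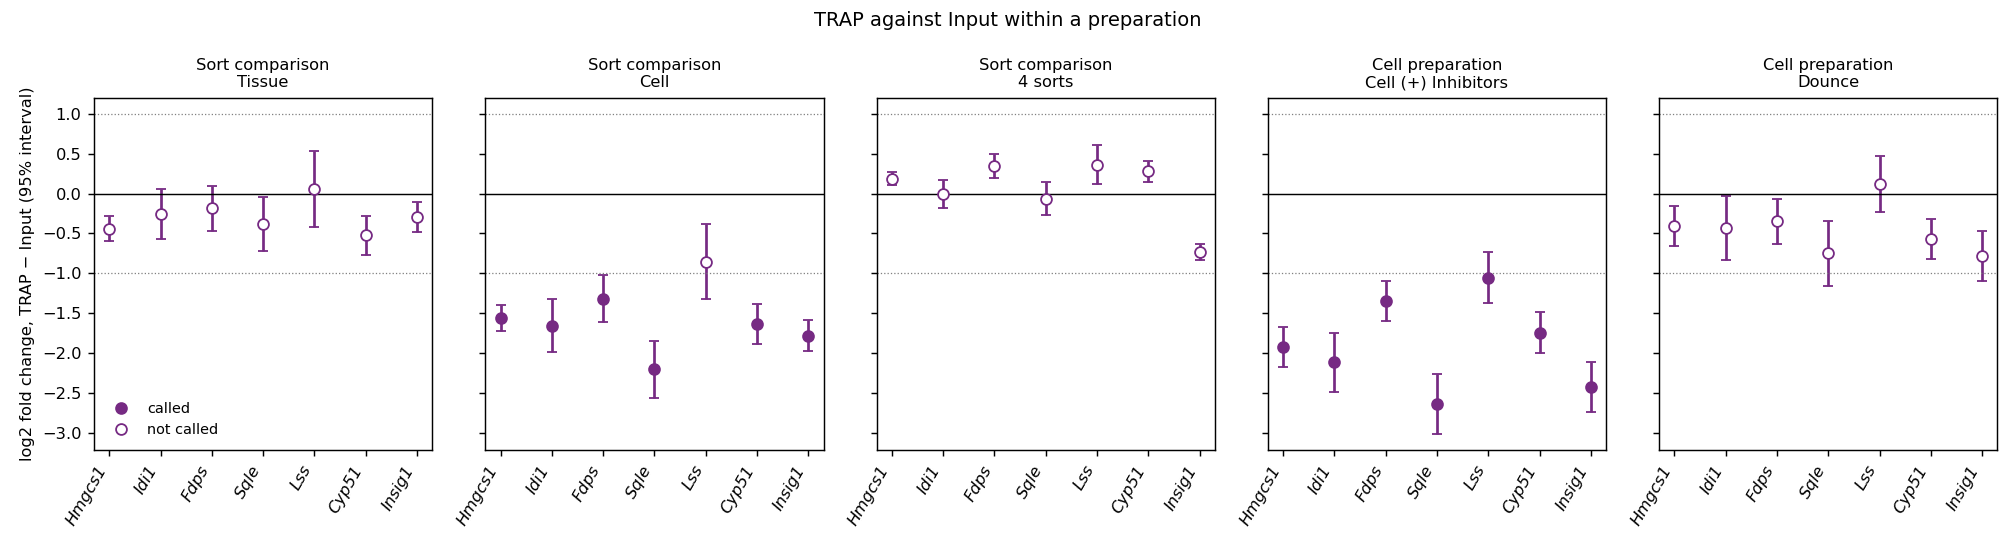
Log2 difference of TRAP against Input within a preparation (vertical axis) with 95% intervals for Tissue, Cell and the sorts of the sort comparison and for Cell (+) Inhibitors and Dounce, with filled points for called genes. Insig1 is the one gene clearly below 0 in the panel of the sorts, at -0.73, while in Cell 6 genes lie beyond a fold of 2.

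The cell preparation comparison set the enzymatic suspension made at 37°C beside the same suspension with inhibitors and beside Dounce dissociation. As the study describes it, Dounce also kept all steps cold, cleared debris on a Percoll gradient and needed a whole brain for RNA. Its mice were others than those of the suspensions. Dounce against Cell therefore does not isolate the enzymatic step. No difference with the inhibitors was called for any of the 7 genes. In TRAP, Hmgcs1 was 127, 102, 109 and 103 CPM in Cell (-) Inhibitors and 95.1, 94.8, 99.5 and 81.8 CPM in Cell (+) Inhibitors. The groups did not overlap and Hmgcs1 was lower with inhibitors in 4 of 4 mice, but the log2 fold change of -0.24 ± 0.12 (95% interval -0.49 to 0.01, adjusted p = 0.591) did not pass. Idi1 (-0.16, interval -0.56 to 0.25) and Insig1 (-0.17, interval -0.51 to 0.18) were also lower in 4 of 4 mice, with overlapping groups. Sqle was 23.2, 17.4, 14.9 and 18.7 CPM without and 17.0, 17.9, 17.1 and 14.8 CPM with inhibitors, a log2 fold change of -0.14 with an interval of -0.61 to 0.32. Fdps (-0.02, interval -0.33 to 0.28), Cyp51 (-0.03, interval -0.31 to 0.25) and Lss (-0.05, interval -0.43 to 0.32) were nearest 0. In TRAP 0 members were called by edgeR, 0 had an unadjusted p under 0.05, and 0 were called by DESeq2 or limma, beside 0.638% of all 14723 genes tested.

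In Input, the effect of the inhibitors ran from -0.10 (Hmgcs1, interval -0.34 to 0.15) to 0.14 (Lss, interval -0.18 to 0.46) on the log2 scale, with Idi1 at -0.05, Fdps at -0.02 and Sqle and Cyp51 at -0.09. For Insig1, with 283, 289, 232 and 191 CPM without and 223, 275, 245 and 194 CPM with inhibitors, it was -0.09 (interval -0.35 to 0.17). Again 0 members were called by edgeR, DESeq2 or limma and 0 had an unadjusted p under 0.05 in edgeR, beside 0.311% of the 15753 genes. The inhibitors' effect on the TRAP to Input difference lay between -0.20 and 0.05 for the 7 genes, with 0 called by any of the 3 tools and 0 at an unadjusted p under 0.05 in edgeR, beside 0.145% of 15894 genes. The intervals bound the differences these libraries could show, and a p that misses the threshold does not show that levels were the same.

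**Figure D4:**
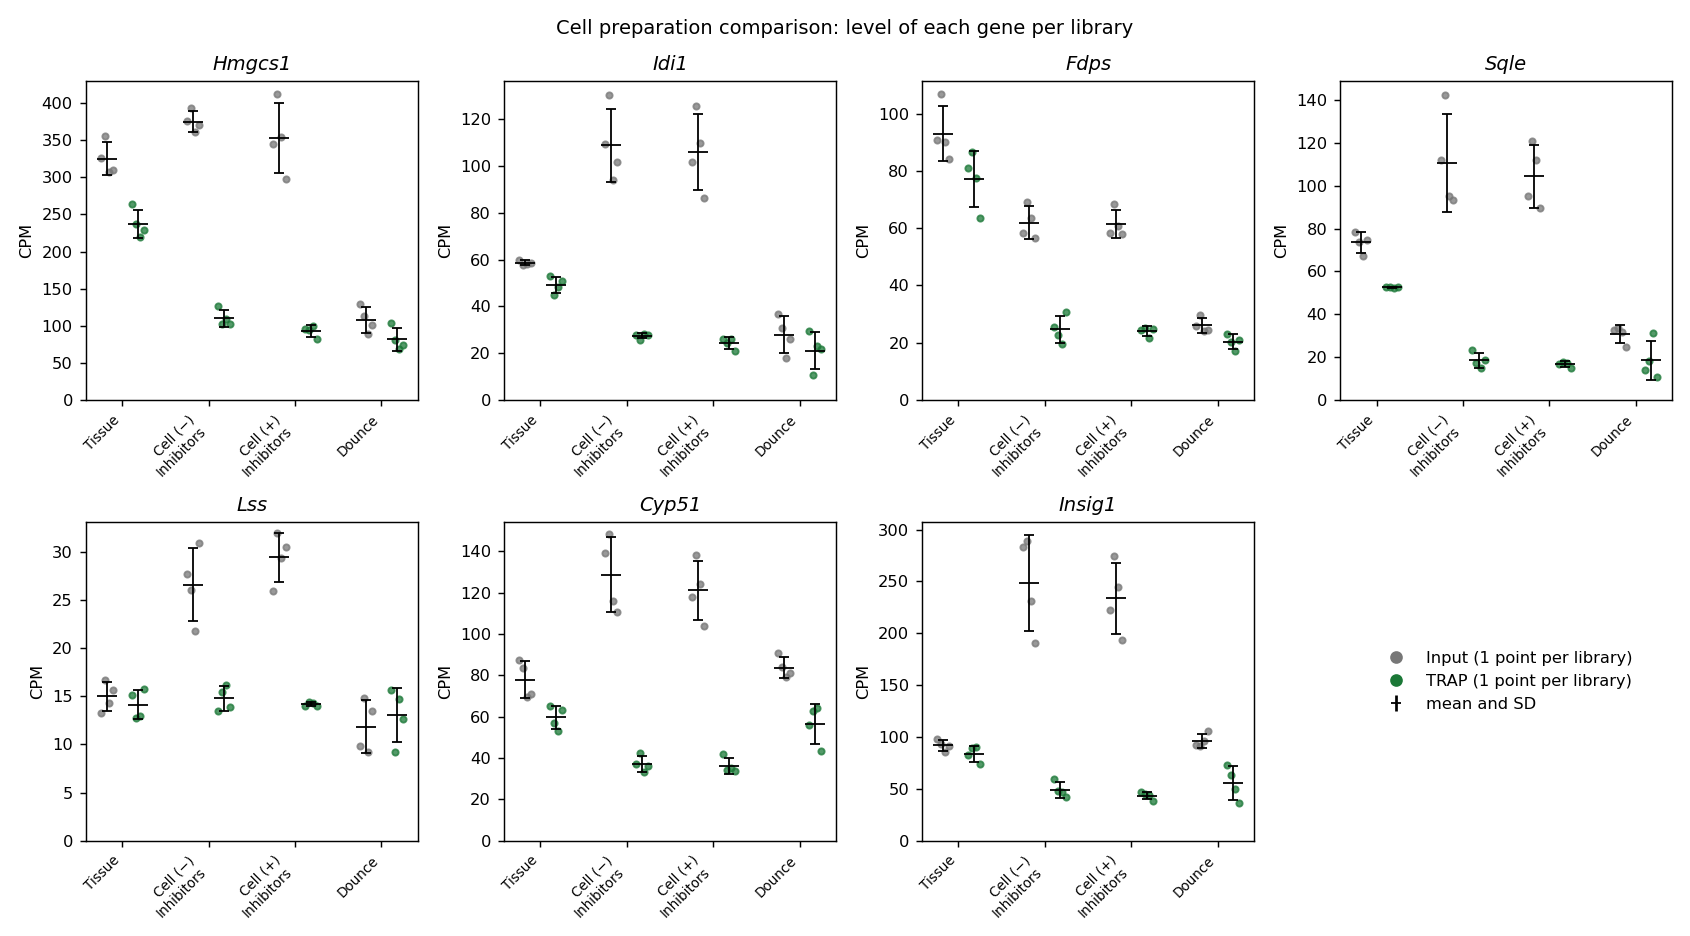
Level of each gene (CPM, vertical axis) in every library of the cell preparation comparison, with Input in grey and TRAP in green and bars for the mean and SD. Cell (-) Inhibitors and Cell (+) Inhibitors lie beside each other for every gene, and Dounce-Input is the lowest Input group for Hmgcs1, at 89.3 to 129 CPM.

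In both enzymatic suspensions of this comparison, Fdps, Sqle and Hmgcs1 were called lower in TRAP than in Tissue-TRAP, contrasts that share their Tissue libraries with each other and their Tissue mice with the sort comparison. Without inhibitors the log2 fold changes were -1.60 ± 0.15 for Fdps, -1.46 ± 0.22 for Sqle and -1.06 ± 0.12 for Hmgcs1, and with inhibitors -1.62 ± 0.15, -1.60 ± 0.22 and -1.30 ± 0.12. Idi1 (-0.80 and -0.96), Insig1 (-0.72 and -0.89) and Cyp51 (-0.63 and -0.67) were not called, although Idi1 passed with inhibitors, at -1.001, without the second Tissue-TRAP library. In a fit of only the 2 groups, Hmgcs1 without inhibitors was at -0.97 and not called. Lss was at 0.11 ± 0.18 and 0.06 ± 0.18. Each count of 3 lower and 0 higher stands beside all genes tested: 30.8% lower and 22.3% higher without, and 31.2% lower and 21.6% higher with inhibitors, where the median was -0.13 in both and the members' median -0.80 and -0.96. The summed neuronal markers were 6551 to 7829 CPM in Tissue-TRAP, and the astrocytic markers 4822 to 7426 there against 1319 to 2160 without and 1235 to 1816 with inhibitors. Their part was not tested.

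Dounce dissociation, which used no enzyme, gave TRAP levels within a fold of 2 of those of Cell (-) Inhibitors for each of the 7. The log2 fold changes ran from -0.42 for Hmgcs1 to 0.61 for Cyp51. The study reports a lower RNA yield and integrity for Dounce-Input than for the other Input groups. It also reports coverage along genes that was more skewed in Tissue-TRAP and Dounce-TRAP than in the suspensions. The effect of these on the levels was not tested. Hmgcs1 was 104, 80.2, 69.1 and 73.5 CPM in Dounce-TRAP and 264, 237, 220.2 and 229.6 CPM in Tissue-TRAP, a log2 fold change of -1.48 ± 0.12 (adjusted p = 5.09e-09). Fdps was 23.1, 20.4, 17.1 and 21.0 CPM against 80.9, 86.6, 77.4 and 63.4 CPM, at -1.85 ± 0.16 (adjusted p = 6.27e-09). Both were below every Tissue-TRAP library. Sqle was 14.2, 18.3, 31.5 and 10.5 CPM in Dounce-TRAP, where the third library stood apart, against 52.4 to 52.8 CPM in Tissue-TRAP, and its log2 fold change of -1.46 ± 0.23 became -1.81 without that library. That library was the shallowest, with neuronal markers of 1831 CPM against 1041 to 1268 in the other 3 and oligodendrocytic markers of 2284 against 1431 to 1840. Idi1 was 29.3, 10.7, 22.9 and 21.6 CPM, called at -1.18 ± 0.21 but at -0.94, and no longer called, without the second library. So 4 of 7 were called lower than Tissue-TRAP and 0 higher, beside 27.1% and 23.2% of all genes, with a members' median of -1.18 against -0.06. Insig1 was at -0.52 ± 0.17 and Lss at -0.07 ± 0.19, not called. From Tissue-TRAP to Dounce-TRAP the summed neuronal markers went from 6551 to 7829 CPM down to 1041 to 1831, and the astrocytic markers from 4822 to 7426 down to 1687 to 3690. Their part in these differences was not tested.

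Cyp51 in Dounce-TRAP was near its level in Tissue-TRAP, and no test between members was made. It was 55.7, 62.9, 64.1 and 43.2 CPM in Dounce-TRAP, 65.4, 56.9, 53.1 and 63.1 CPM in Tissue-TRAP and 37.04, 42.6, 33.1 and 36.04 CPM in Cell (-) Inhibitors TRAP. Dounce overlapped Tissue and lay above Cell, with log2 fold changes of -0.02 ± 0.14 against Tissue (95% interval -0.31 to 0.26) and 0.61 ± 0.14 against Cell (adjusted p = 0.00106), the second a 1.53-fold difference that was not called. Insig1 in Dounce-TRAP, at 73.3, 63.8, 49.7 and 36.4 CPM, spread from below to above the 41.9 to 59.6 CPM of Cell, at 0.20 ± 0.17 on the log2 scale. Hmgcs1 (-0.42 ± 0.12), Idi1 (-0.38 ± 0.21), Fdps (-0.26 ± 0.16), Lss (-0.18 ± 0.19) and Sqle (-0.01 ± 0.23) lay at or below 0 against Cell. Of the 7, 0 were called in this contrast by edgeR, DESeq2 or limma and 2 had an unadjusted p under 0.05 in edgeR, beside 20.7% of all genes called higher and 8.02% lower.

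The Input RNA after Dounce dissociation was compared with that of tissue and of the enzymatic suspension. The study reports a lower RNA integrity in Dounce-Input than in both, and the effect of this was not tested. Hmgcs1 was 129, 113, 89.3 and 100.5 CPM in Dounce-Input, 326, 356, 308 and 310.5 CPM in Tissue-Input and 375, 394, 361 and 370.2 CPM in Cell (-) Inhibitors Input. Sqle was 32.5, 33.8, 31.6 and 24.5 CPM in Dounce-Input, 78.4, 73.9, 67.0 and 74.9 CPM in Tissue-Input and 112, 142, 95.2 and 93.1 CPM in Cell (-) Inhibitors Input. Dounce lay below both other groups for both genes. Against Tissue, Fdps (-1.62 ± 0.11), Hmgcs1 (-1.38 ± 0.12) and Sqle (-1.05 ± 0.14) were called lower, with Sqle at -0.96 without the fourth Dounce-Input library, and Idi1 was at -0.84 ± 0.16, or -1.02 and called without the first. Cyp51 (0.32 ± 0.12), Insig1 (0.27 ± 0.13) and Lss (-0.12 ± 0.16) were not called. That makes 3 of 7 lower and 0 higher, beside 21.4% and 28.7% of all genes, with a members' median of -0.84 against 0.10. Between Tissue-Input and Dounce-Input the neuronal markers went from 7244 to 7452 CPM down to 2822 to 3176, and the astrocytic markers from 4066 to 4382 down to 1093 to 2933. Their part in these differences was not tested.

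Against Cell (-) Inhibitors, Dounce-Input was lower in Idi1 (-1.60 ± 0.17), Sqle (-1.50 ± 0.14), Hmgcs1 (-1.44 ± 0.12) and Insig1 (-1.02 ± 0.13, adjusted p = 4.94e-07). Insig1 was 92.1, 91.1, 96.1 and 106 CPM in Dounce-Input and 283, 289, 232 and 191 CPM in Cell, without overlap, but its call rested on single libraries: it was -0.94 without the first or the second Cell library and -0.99 without the second Dounce library. Fdps (-0.90 ± 0.11), Lss (-0.81 ± 0.16) and Cyp51 (-0.27 ± 0.12) were not called. The count of 4 lower and 0 higher stands beside 28.1% and 28.8% of all genes tested, and the median of -1.02 beside -0.06. Astrocytic markers were 1093 to 2933 CPM in Dounce-Input against 7447 to 11450.0 in Cell, and neuronal markers 2822 to 3176 against 407 to 729, and their part was not tested.

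In Input of the enzymatic suspensions, Insig1 was the one member called against Tissue, at 1.29 ± 0.13 without (adjusted p = 2.55e-08) and 1.20 ± 0.13 with inhibitors (adjusted p = 6.98e-08), against 98.1, 93.3, 85.1 and 91.3 CPM in Tissue-Input. It was higher in every suspension library than in every Tissue library. Lss (0.69 and 0.83), Idi1 (0.75 and 0.71), Cyp51 (0.58 and 0.49) and Sqle (0.45 and 0.36) lay above 0, Hmgcs1 at 0 (0.07 and -0.03), and Fdps below it (-0.73 and -0.74), none of them called. Each count of 1 higher and 0 lower stands beside 25.6% higher and 19.1% lower of all genes without inhibitors and 25.5% and 20.2% with them. The astrocytic markers were 4066 to 4382 CPM in Tissue-Input, 7447 to 11450.0 without and 8054 to 10451 with inhibitors, the oligodendrocytic markers 4385 to 5385, 10911 to 24756 and 13943 to 19357, and the neuronal markers 7244 to 7452, 407 to 729 and 289 to 826. Their part in the rise of Insig1 was not tested.

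The TRAP to Input difference was taken within each preparation, and its change from Tissue or Dounce to the suspensions was not tested here. In Tissue it was -0.48 ± 0.17 for Sqle, -0.45 for Hmgcs1, -0.38 for Cyp51, -0.27 for Fdps, -0.25 for Idi1, -0.13 for Insig1 and -0.08 ± 0.16 for Lss, with 0 members called by edgeR, DESeq2 or limma and, in edgeR, 4 at an unadjusted p under 0.05 and 3 past the false discovery rate, beside 8.21% of all genes called higher and 2.31% lower. In Cell (-) Inhibitors 6 of 7 were called lower in TRAP, led by Sqle at -2.57 ± 0.18 and Insig1 at -2.34 ± 0.15, then Idi1 (-1.99 ± 0.18), Cyp51 (-1.79 ± 0.12) and Hmgcs1 (-1.77 ± 0.12), with Lss at -0.85 ± 0.16, beside 36.7% of all genes called lower and 10.6% higher. In Cell (+) Inhibitors 7 of 7 were, again led by Sqle (-2.64 ± 0.18) and Insig1 (-2.42 ± 0.15), then Idi1 (-2.12 ± 0.18), Hmgcs1 (-1.93 ± 0.12) and Cyp51 (-1.74 ± 0.12), beside 35.8% lower and 9.71% higher. The medians of all genes were -0.42 and -0.39 in these suspensions and moved by 0.13 and 0.12 with DESeq2's size factors. From Input to TRAP the oligodendrocytic markers went from 10911 to 24756 CPM down to 508 to 1466 without inhibitors. With inhibitors they went from 13943 to 19357 CPM down to 491 to 670. The astrocytic markers went from 7447 to 11450 CPM down to 1319 to 2160 without, and from 8054 to 10451.5 down to 1235 to 1816 with inhibitors. The part of these markers in the differences was not tested. Fdps, at -1.33 and -1.35, and Lss, at -1.05 with inhibitors, were -0.97, -0.99 and -0.69 without the third Dounce mouse, whose libraries enter the scaling and the shared spread, and lost their calls there. In Dounce the differences ran from -0.78 ± 0.15 for Insig1 and -0.75 ± 0.20 for Sqle to 0.12 for Lss, with Cyp51 at -0.57, Idi1 at -0.44, Hmgcs1 at -0.41 and Fdps at -0.35, and with 0 members called by edgeR, 6 at an unadjusted p under 0.05, 1 called by DESeq2 and 2 by limma, beside 26.7% of all genes called lower and 20.8% higher. Without the third Dounce mouse, Sqle was at -1.37 and Insig1 at -1.04 and both were called.

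The other genes of the pathway were taken from lists written with earlier results of these data known. Of 14 other enzymes of cholesterol synthesis that were tested, 7 were lower and 2 higher in the sorted TRAP libraries than in Tissue-TRAP, with a median log2 fold change of -0.99, beside 36.9% lower and 25.9% higher of all genes. The genes named in this paragraph were singled out after their values were seen. Fdft1, squalene synthase, which makes the substrate of Sqle, was at -2.56 ± 0.09. Lbr, a sterol reductase that also binds the nuclear lamina, was at 2.76 ± 0.10, and Ebp, a sterol isomerase, at 1.11 ± 0.07. From Cell-TRAP to the sorted TRAP libraries, 1 of the 14 was called lower and 0 higher, beside 23.6% and 0.836%. Cell-TRAP against Tissue-TRAP had 5 lower and 1 higher, beside 29.3% and 25.1%, and Dounce-TRAP 6 lower and 1 higher, beside 27.1% and 23.2%. In Input, 12 of the 14 were lower in the sorts than in Cell and 0 higher, beside 34.7% and 17.1%, the 2 exceptions being Ebp and Lbr.

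**Figure D5:**
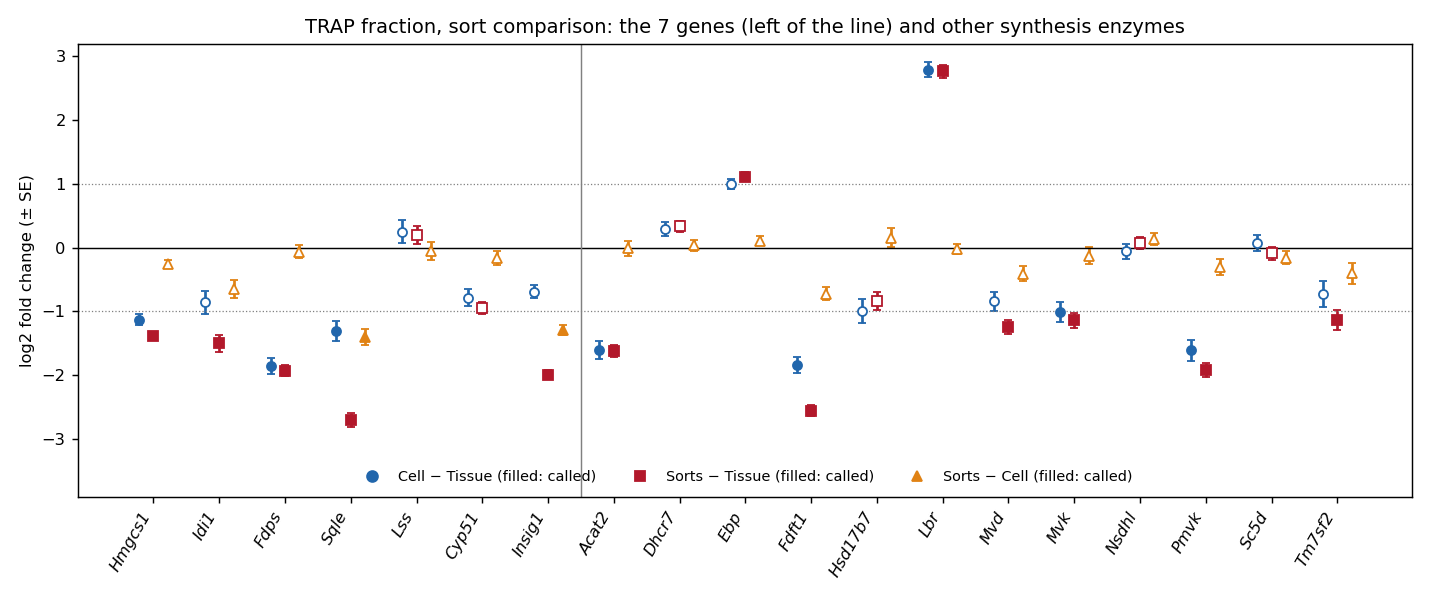
Log2 fold change ± SE in the TRAP fraction of the sort comparison for the 7 genes and 12 other synthesis enzymes, for Cell against Tissue, sorts against Tissue and sorts against Cell. Most enzymes lie below 0 against Tissue, with Sqle at -2.70 and Lbr at 2.76 as the ends for the sorts, and most lie near 0 between the sorts and Cell.

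Genes that sense, take up, export or store sterol were counted in the same way, for the sorted TRAP libraries against Tissue-TRAP, where 25.9% of all genes were called higher and 36.9% lower. Between these groups the microglial markers rose from at most 6730 to at least 40487 CPM and the neuronal markers fell from at least 5127 to at most 9.86 CPM, and their part in these counts was not tested. Srebf2, which encodes SREBP-2, was at -0.72 ± 0.07 in the sorted TRAP libraries against Tissue-TRAP and at 0.00 ± 0.08 against Cell-TRAP, under the fold of 2 in both. Of 6 genes of SREBP control, 3 were called higher than in Tissue-TRAP and 0 lower. Of 7 uptake and transport genes, 4 were higher and 1 lower. Among them Lrp1, a large lipoprotein receptor, was at 3.52 ± 0.11, and Npc1, which exports cholesterol from lysosomes, at 3.37 ± 0.10. Abca1, which loads cholesterol onto apolipoproteins, was at 4.46 ± 0.11, and 3 of 6 LXR and efflux genes were higher and 1 lower. Among 5 genes of storage and oxysterols 3 were higher and 2 lower, and of 8 genes of fatty acid synthesis 6 were lower and 0 higher, Fads2, a fatty acid desaturase, reaching -6.90 ± 0.18. With the inhibitors, 0 genes of these lists were called by edgeR in either fraction, beside 0.638% of all genes in TRAP and 0.311% in Input. At shares this low, 0 calls in short lists say little about these genes. The farthest gene of those named was Ch25h, cholesterol 25-hydroxylase, at -0.86 in TRAP, not called.

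The members did not move as 1 unit. Over the TRAP libraries, the Pearson correlation of log2(CPM + 1) between 2 members ran from -0.32 to 0.963 in the sort comparison (24 libraries) and from -0.28 to 0.946 in the cell preparation comparison (16 libraries), values that share the groups and the scaling of these libraries and carry no test. The genes whose TRAP pattern was most like the mean of the 7 were Tspyl4, Pfkm, Lancl2, Dcaf12l1 and Ndn, with the lower of the 2 correlations at 0.981, 0.974, 0.973, 0.973 and 0.972 among 14420 genes. None of the 5 is on a list used here. In the sort comparison the summed neuronal markers were 5127 to 5980 CPM in Tissue-TRAP and at most 328 in every other TRAP group. Their part in these correlations was not tested. The summed CPM of the 7 members was 454 ± 27.3 (SD, n = 4) in Tissue-TRAP, 217 ± 10.6 in Cell-TRAP, 583 ± 25.1 in Tissue-Input and 672 ± 12.5 in Cell-Input of the sort comparison.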

How the data were processed

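RNA-Seq libraries (stranded, poly(A)-selected) from 80 samples were used. The authors trimmed adapters and low-quality bases, aligned reads to mm10 with the strand taken into account, removed duplicates and quantified genes in Strand NGS; the deposited expected counts per gene are mostly not whole (whole in 33.2% of the sort values and 20.8% of the cell preparation values) and were rounded here before any count model. The authors filtered the tables on low counts before deposit. The deposited log2 values, which the authors scaled with DESeq2 size factors and centred per gene on the Tissue-Input median, were used in limma as an alternative. An earlier table of the inhibitor libraries was not used, and 23 gene symbols that a spreadsheet had turned into dates were looked up by gene ID in the reference annotation where it held one. Per-sample columns without a sample numbered 0. The library totals set the precision, and a low count has a wide counting error, as for the member counts given for the shallowest sorted library.

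Groups came from the labels. A gene entered a fit where every sample of some group had more than 5 counts. Tests used edgeR 4.0.16 in R 4.3.3 (quasi-likelihood test, TMM, group as the only factor, all groups of a set in 1 fit); SE is the log2 fold change divided by the root of F. Alternatives used DESeq2 1.42.0, limma 3.58.1, other filters, fewer groups, each library or mouse left out, and the mouse as a block. Scripts were tested on simulated data. The members and lists were chosen with earlier results of these data known. All 7 members were tested in every comparison and named, with up to 3 called list genes per direction with the largest change, and Srebf2, Abca1 and Ch25h anywhere, apart from some genes that are not reported here; similar genes were the 5 with the highest correlation with the members' mean over TRAP libraries.

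The same mouse number in 2 groups marks the same animal. Deviations from the group means of same-numbered libraries correlated on average by -0.004 (Input) and 0.07 (TRAP) between Tissue and Cell, by 0.03 and 0.22 between Cell without and with inhibitors, and by 0.09 to 0.30 between Input and TRAP of a preparation.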

Additional observations from a re-analysis of the deposited data

Results flagged for a closer look

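In 4 of 126 pairs of a gene and a group of 4 or 5 libraries, 1 library stood farther from the rest than Dixon's 95% limit allows, where chance gives about 1 in 20. Cyp51 was 59.6 CPM in the third Tissue-Input library of the sort comparison against 66.8 to 67.2 in the others, and 16.2 CPM in the fourth Tyto-Input library against 20.9 to 22.01. Idi1 was 25.8 CPM in the second Cell (-) Inhibitors TRAP library against 27.8 to 28.0. Lss was 14.3 CPM in the first Cell-TRAP library of the sort comparison against 10.96 to 11.4.

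The TRAP to Input difference was not the same in Tissue and Cell of the sort comparison for 6 genes by edgeR's interaction test, with log2 values of -1.12 for Hmgcs1, -1.40 for Idi1, -1.13 for Fdps, -1.82 for Sqle, -1.11 for Cyp51 and -1.49 for Insig1. Of all 15825 genes tested, 29.5% were called lower and 5.74% higher. The median of all genes was -0.29 and moved by -0.32 with DESeq2's size factors.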

How the results depend on the processing

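No member's log2 fold change that had been called changed direction under any alternative. Leaving out 1 library or mouse kept the side of the threshold in 3088 of the single-gene results, moved 12 past it and took 8 below it, and the other alternatives kept 1137, moved 33 past it and took 6 below it. Of the members called, Cell-Input against Tissue-Input of the sort comparison had 1 and, with at least 10 counts in every sample, 0, since Lss was then not tested. Cell-TRAP against Tissue-TRAP of the sort comparison had 3 and, with DESeq2 size factors, the DESeq2 test, at least 10 counts or limma, 6. Over all genes, 4375 were called lower in the main fit, 5210 with the size factors, 5126 by the DESeq2 test and 5516 with limma. The median of all genes moved by -0.33, -0.33 and -0.43 in these alternatives. Cell (+) Inhibitors TRAP against Tissue-TRAP had 3, and 5 with at least 10 counts. The TRAP to Input difference in Dounce had 0, then 1 with DESeq2 size factors or the DESeq2 test, 3 with at least 10 counts, 2 with limma and 0 to 2 when a mouse was left out. Genes called lower over all were 4244 in the main fit, 5171 with the size factors, 5191 by the DESeq2 test and 5909 with limma. Lss in Cell (+) Inhibitors (TRAP against Input) fell below a fold of 2 at -0.93 with DESeq2 size factors and at -0.76 in a fit of only that preparation, where Fdps without inhibitors was at -0.99. The members called ranged from 2 to 4 for Dounce-Input against Tissue-Input, 3 to 4 for Dounce-Input against Cell-Input, 3 to 4 for Cell-TRAP, Cell (+) Inhibitors TRAP and Dounce-TRAP against Tissue-TRAP, 6 to 7 for TRAP against Input in Cell of the sort comparison and its interaction, and 5 to 6 and 5 to 7 for Cell without and with inhibitors, as single libraries or mice were left out.

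The mouse as a replicate block was fitted for Cell against Tissue of the sort comparison, for Cell with against without inhibitors and for TRAP against Input, and not for the other contrasts within a fraction. In these fits no count of called members changed, while the genes called over all between Cell without and with inhibitors went from 94 to 150 in TRAP and from 23 to 39 for the TRAP to Input difference. With limma on the deposited log2 values, the share of higher among called genes went from 41.2% to 29.9% for sorted TRAP against Tissue-TRAP, from 72.1% to 58.6% for Dounce-TRAP against Cell-TRAP, from 83.1% to 70.3% for TRAP against Input in Tissue of the sort comparison and from 43.8% to 30.4% in Dounce. The Dounce-TRAP libraries were the shallowest, at 2471448 to 4724538 counts, and the effect of depth on the calls was not tested.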

Other observations

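In Input of the sort comparison, Srebf2, which encodes SREBP-2, was lower in the sorts than in Cell (-1.40 ± 0.12 on the log2 scale, edgeR adjusted p = 1.4e-10), while Abca1 was higher (1.60 ± 0.13). Abca1 (3.34 ± 0.16) and Ch25h (3.31 ± 0.62) were also higher in Cell-Input than in Tissue-Input, Ch25h from a mean of 0.373 CPM in Tissue-Input. The summed microglial markers were 239.8 to 376 CPM in Tissue-Input, 4423 to 5755 in Cell-Input and 23291 to 41749.9 in the sorted Input. The astrocytic markers went from 6516 to 8702 CPM in Cell-Input down to 166 to 417 in the sorted Input. Cyp46a1, the neuronal cholesterol 24-hydroxylase, was at -4.58 ± 0.24 in Cell (-) Inhibitors TRAP against Tissue-TRAP and at 3.02 ± 0.24 in Dounce-TRAP against that suspension. The summed neuronal markers were 6551 to 7829 CPM in Tissue-TRAP, 84.5 to 190 in Cell (-) Inhibitors TRAP and 1041 to 1831 in Dounce-TRAP. The part of the markers in the differences of this paragraph was not tested.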
